A study of Mus musculus with 14 samples.

Results

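The comparison of Dnmt1 knockout with Cre-positive control urothelium rests on 7 of the 14 bladder urothelium libraries collected from mouse embryos at embryonic day 15.5, the 5 titled Dnmt1cKO and the 2 titled Control. Embryos of the Dnmt1cKO group were Shhcre/+; Dnmt1flox/flox and those of the Control group Shhcre/+; Dnmt1flox/+, all on a mixed C57BL/6; 129S4 background. Shhcre places Cre at the Shh locus, so that Cre acts where Shh is made, among other tissues in the epithelium of the developing bladder, and both groups carry 1 altered Shh allele. The groups differ in the second Dnmt1 allele, which is floxed in Dnmt1cKO and intact in Control embryos. The other 7 libraries came from Cre-negative littermates (Dnmt1 genotype not given), which entered the same fit and are given here as a level without recombination. The labels' protocols describe dissected urothelium, freed of stroma by trypsin, with the tissue of several embryos in each lysate. A library is therefore a pool, and the number and sex of its embryos are not given in the sources used here.

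Dnmt1 is the maintenance DNA methyltransferase. It copies CpG methylation onto the new DNA strand after replication, guided by Uhrf1, and methylation is lost over cell divisions without it. A set of genes used in germ cells and placenta is kept silent in somatic cells largely by methylation of their promoters, and many of them, such as the Rhox homeobox genes and Dazl, are among the first to be transcribed where Dnmt1 is missing. Methylation itself was not measured in these libraries, which hold polyadenylated RNA.

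Knockout below means Dnmt1cKO. Levels are given as CPM, expected counts per 1000000 of a TMM-scaled library, in the order of the library numbers, 1 and 2 for Control and 1 to 5 for Dnmt1cKO. Log2 changes are log2 fold changes of Dnmt1cKO against Control with their standard errors, and a gene was called changed when its adjusted p in edgeR's quasi-likelihood test was under 0.05. Library totals ran from 5731113 to 13131921 expected counts in Control, 2520509 to 9573007 in Dnmt1cKO and 3111972 to 12958881 in Cre-negative libraries. Dnmt1 itself measured 97.4 and 106 CPM in Control, 41.3 to 192 CPM in Cre-negative and 9.99, 26.7, 123, 31.2 and 49.1 CPM in the knockout libraries (log2 change -1.08 ± 0.68, adjusted p = 0.95), so that the library labelled Dnmt1cKO 3 stood above both Control libraries and the other 4 below them. Counts are per gene, and exons outside the floxed part can still give reads. The library labelled Dnmt1cKO 3 also had the highest summed stroma and smooth muscle markers of its group, 12497 CPM against 293 to 7722 CPM in the others. The source of its Dnmt1 reads was not tested. Without the library labelled Dnmt1cKO 3 all 23 calls reported below were kept and 26 genes in all were called higher. Among urothelial markers, Krt5, a basal keratin, was between 119 and 343 CPM in the 7 libraries and Krt4 between 226 and 1370.4 CPM. Upk2, a uroplakin of the apical plaque, measured 186 and 78.0 CPM in Control and 86.2, 66.0, 0, 45.9 and 20.0 CPM in the knockout libraries (log2 change -1.59 ± 0.84, adjusted p = 0.8), with 0 counts in the library labelled Dnmt1cKO 3. The uroplakins Upk1b and Upk3a overlapped between the groups. Upk1b measured 1710 and 904 CPM in Control and 529 to 1842 CPM in the knockout libraries, and Upk3a 330 and 184 CPM and 145 to 634 CPM.

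Of 13011 genes tested, 23 rose in Dnmt1cKO urothelium (0.177% of those tested) and 0 fell (0%). At an unadjusted p under 0.05 edgeR gave 223 higher genes (1.71%) and 680 lower genes (5.23%). Of the alternatives, DESeq2 called 25 genes lower and limma-voom 173. By Cre-negative level the 23 genes fall into 12 with a mean under 1 CPM, 3 between 1 and 10 CPM and 8 at 10 CPM or more. Without the Dnmt1cKO libraries 15 of the 23 would have passed the filter, as would 12609 of the 13011 genes tested. The called genes that would not have passed were all under 1 CPM. The share of all tested genes at each level was not taken, so these counts are not read as a trait of the called genes. The group with no appreciable expression holds the Rhox genes, germ cell genes and placental genes, and the group at 10 CPM or more holds genes that the urothelium already transcribed. The summed CPM of the 23 genes was 505 and 621 in Control, 420 to 653 in Cre-negative and 12066 to 23843 in the knockout libraries, a description only, since the genes were chosen by this difference. Among the 5 Dnmt1cKO libraries, the one labelled Dnmt1cKO 3 was the lowest for 14 of the 23 genes and Dnmt1cKO 4 the highest for 10. The count of calls rests on both Control libraries: 6 genes were called higher without Control 1 and 9 without Control 2, all of them among the 23.

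**Figure D1:**
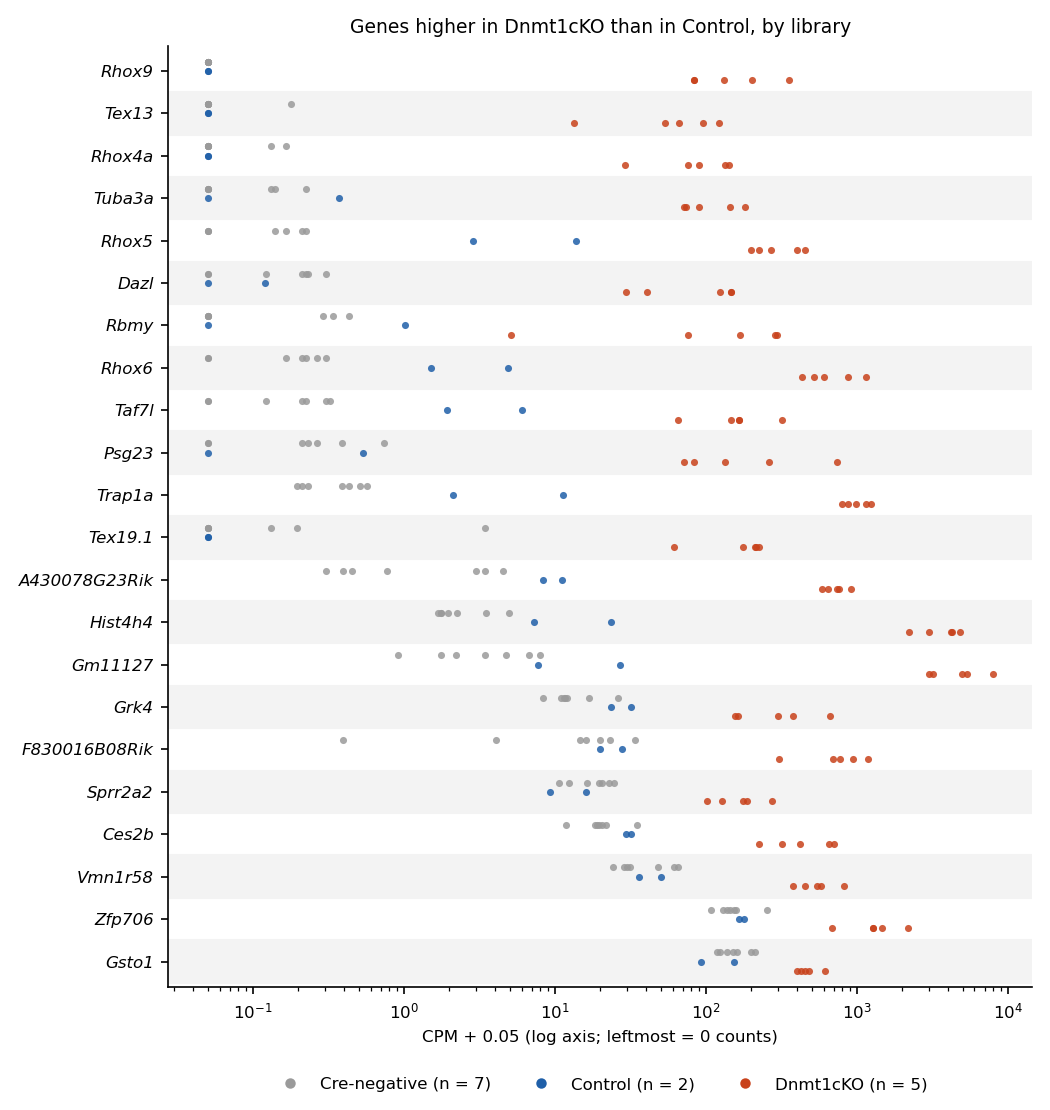
CPM of 22 of the 23 called genes in each library, with 0.05 added, on a log axis; each point is 1 library of the Cre-negative (n = 7), Control (n = 2) or Dnmt1cKO (n = 5) group, and genes are ordered by their Cre-negative mean. For all 22 genes the 5 Dnmt1cKO libraries stand to the right of both Control libraries, as in 2.6% of all genes tested. The genes were called by this same comparison, so this is a description only. Rhox9 is at the top, with 0 counts in the 9 other libraries. Gsto1 is at the bottom, with up to 153 CPM in Control and at least 398 CPM in Dnmt1cKO.

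The Rhox genes, a cluster of homeobox genes on the X chromosome that work in testis, ovary and placenta, gave 4 of the 23 calls. Rhox6 measured 1.45 and 4.86 CPM in Control and 606, 432, 517, 1148 and 867 CPM in the knockout libraries (log2 change 7.87 ± 0.76, adjusted p = 7.21e-07). All 5 knockout libraries were far above both Control libraries, and Control 2 was the higher of that pair. Rhox9 had 0 counts in both Control and all 7 Cre-negative libraries and 203, 83.5, 83.5, 355 and 132 CPM in the knockout libraries, at least 1055-fold higher than Control (adjusted p = 0.000429). Rhox5, which is regulated by androgens in the epididymis, measured 2.83 and 13.8 CPM in Control and 398, 224, 197, 268 and 451 CPM in the knockout libraries (log2 change 5.23 ± 0.80, adjusted p = 0.000884). Its Control level was not at background, and the groups did not overlap. Rhox4a had 0 counts in Control and 28.8, 89.9, 76.2, 133 and 141 CPM in the knockout libraries, at least 626-fold higher (adjusted p = 0.00204). Rhox4a is one of 7 listed copies, Rhox4a to Rhox4g, whose transcripts are 96.7% to 99.1% identical to its own, so single copies are not resolved. Summed over the 7 copies the level was 0.553 and 2.27 CPM in Control and 131, 332, 348, 446 and 369 CPM in the knockout libraries, a narrower spread than that of Rhox4a alone. Transcripts of Rhox6 and Rhox9 are 91.9% identical over 825 bases. Of 31 listed Rhox genes, 16 were tested, 11 had 0 counts in every library, and 4 of the 16 would have passed the filter without the Dnmt1cKO libraries. Without Control 1 the calls of Rhox5 (adjusted p = 0.155) and Rhox4a (adjusted p = 0.208) were lost, and without Control 2 that of Rhox4a (adjusted p = 0.106). On GRCm38 Rhox4a spans chrX:37265338-37270132, Rhox5 chrX:37804842-37808876, Rhox6 chrX:37826910-37829857 and Rhox9 chrX:37899097-37901770.

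Further calls on the X chromosome were Trap1a, Taf7l and Tex13, which brings it to 7 of 23 called genes (30.4%). Of the tested genes that could be placed, 3.67% lie on this chromosome. Rhox9, Rhox4a and Tex13 would not have passed the filter without the Dnmt1cKO libraries, so this share is a description only. Trap1a encodes the tumour rejection antigen P1A, made in testis and placenta. It measured 2.07 and 11.2 CPM in Control and 985, 792, 873, 1243 and 1152 CPM in the knockout libraries (log2 change 7.28 ± 0.68, adjusted p = 6.58e-07); here the library labelled Dnmt1cKO 3 was the second lowest of its group. Taf7l, a testis paralog of a subunit of the general transcription factor TFIID, measured 1.87 and 5.99 CPM in Control and 319, 166, 64.7, 146 and 164 CPM in the knockout libraries (log2 change 5.47 ± 1.005, adjusted p = 0.00962). Tex13, which current annotation lists as Tex13b, had 0 counts in Control and 95.6, 13.3, 66.6, 122 and 53.1 CPM in the knockout libraries, at least 397-fold higher (adjusted p = 0.0161). Its lowest value, in Dnmt1cKO 2, was 9.15-fold below its highest, in Dnmt1cKO 4. The call of Taf7l was lost without Control 1 (adjusted p = 0.762), Control 2 (0.131) or Dnmt1cKO 1 (0.081), and that of Tex13 without Control 1 (0.762), Control 2 (0.421), Dnmt1cKO 1 (0.0551) or Dnmt1cKO 4 (0.0929). Trap1a lies at chrX:139333683-139338169 and Taf7l at chrX:134460118-134476490.

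Autosomal germ cell genes rose as well. Dazl encodes an RNA-binding protein that germ cells need to develop. It had 1 count in Control 1 and 0 in Control 2, and measured 40.5, 124, 29.6, 146 and 145 CPM in the knockout libraries, 2084-fold higher by its counts (95% exact counting interval 374 to 82356, adjusted p = 0.00306). The library labelled Dnmt1cKO 3 and Dnmt1cKO 1 were the low ones, at 29.6 and 40.5 CPM. Tex19.1, which helps to control retrotransposons in the germ line and placenta, had 0 counts in Control and 209, 175, 61.3, 214 and 224 CPM in the knockout libraries, at least 1181-fold higher (adjusted p = 0.00794). Tuba3a, a testis alpha-tubulin, measured 0 and 0.324 CPM in Control and 145, 71.6, 89.5, 73.2 and 182 CPM in the knockout libraries, 996-fold higher by its counts (95% exact counting interval 276 to 8232, adjusted p = 0.00404). Its near-identical partner Tuba3b measured 0.691 and 4.21 CPM in Control and 89.0, 67.8, 187, 109.9 and 191 CPM in the knockout libraries and was not called (log2 change 5.74 ± 1.25, adjusted p = 0.0558). The sum of the pair was 0.691 and 4.53 CPM in Control and 139 to 373 CPM in the knockout libraries. Psg23, a pregnancy-specific glycoprotein gene of the placenta, measured 0 and 0.486 CPM in Control and 263, 83.2, 71.2, 735 and 134 CPM in the knockout libraries, 1559-fold higher by its counts (95% exact counting interval 533 to 7563, adjusted p = 0.000699). No count fell on its near-identical partner Psg21 in these libraries. Without Control 1 the calls of Dazl (adjusted p = 0.184), Tex19.1 (0.385), Tuba3a (0.323) and Psg23 (0.0695) were lost, and without Control 2 those of Dazl (0.202) and Tex19.1 (0.181).

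Promoter sequence was available for 16 of the 23 called genes, as the 250 bases before the RefSeq start on GRCm38.p6. Hist4h4, Rhox6, Rhox9, Ces2b, A430078G23Rik, Zfp706 and F830016B08Rik had no entry. The 16 windows held a median of 6.5 CpG (range 1 to 20), against 16 in the 10259 tested genes with a window (quartiles 9.5 and 22), and their median GC content was 47.6% against 60%. The range is wide: the windows of the germ cell genes Dazl, Tex19.1 and Taf7l held 20, 15 and 14 CpG, that of Trap1a 7 and that of Psg23 2. These 5 are shown because they run from the most to the fewest CpG among the windows of called genes with a Cre-negative mean under 1 CPM; bases are in lower case and each CpG is in capitals.
Dazl promoter window, chr17:50293621-50293870, minus strand: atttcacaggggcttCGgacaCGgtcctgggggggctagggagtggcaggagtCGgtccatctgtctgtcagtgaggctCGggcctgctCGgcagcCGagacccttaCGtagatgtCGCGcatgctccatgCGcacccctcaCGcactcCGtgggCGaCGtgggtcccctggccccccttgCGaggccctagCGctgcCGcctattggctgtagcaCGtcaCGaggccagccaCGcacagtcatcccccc
Tex19.1 promoter window, chr11:121145893-121146142, plus strand: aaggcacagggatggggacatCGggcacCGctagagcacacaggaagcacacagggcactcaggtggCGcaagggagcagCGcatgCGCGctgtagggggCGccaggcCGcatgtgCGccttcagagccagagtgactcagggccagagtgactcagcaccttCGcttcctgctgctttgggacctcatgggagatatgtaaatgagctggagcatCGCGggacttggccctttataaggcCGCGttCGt
Taf7l promoter window, chrX:134476491-134476740, minus strand: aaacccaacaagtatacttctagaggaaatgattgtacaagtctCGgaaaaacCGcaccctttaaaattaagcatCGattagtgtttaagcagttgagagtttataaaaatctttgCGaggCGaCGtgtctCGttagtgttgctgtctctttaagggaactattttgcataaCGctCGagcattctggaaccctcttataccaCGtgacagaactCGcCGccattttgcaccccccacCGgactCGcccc
Trap1a promoter window, chrX:139333433-139333682, plus strand: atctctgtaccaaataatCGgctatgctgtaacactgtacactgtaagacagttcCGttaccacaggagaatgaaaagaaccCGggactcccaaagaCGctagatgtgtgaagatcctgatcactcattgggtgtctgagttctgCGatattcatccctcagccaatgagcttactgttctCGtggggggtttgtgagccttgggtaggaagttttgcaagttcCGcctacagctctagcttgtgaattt
Psg23 promoter window, chr7:18616502-18616751, minus strand: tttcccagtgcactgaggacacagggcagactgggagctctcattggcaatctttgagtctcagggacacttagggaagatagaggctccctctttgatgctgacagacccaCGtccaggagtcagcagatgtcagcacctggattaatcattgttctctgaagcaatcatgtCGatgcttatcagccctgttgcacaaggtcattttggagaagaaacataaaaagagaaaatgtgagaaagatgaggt
Each sequence reads 5′ to 3′ towards the start of the gene. In Dazl the CpG pairs are spread over the whole window, in Tex19.1 they gather in its first part and again at its end, and in Psg23 they stand alone. The letters GCGGGAA, a core recognised by the germline gene repressor E2F6, were searched on both strands and occurred in the window of Tuba3a only among the 16 (6.25%, against 8.08% of tested windows). The letters CACGTG, the E-box of the MGA and MAX repressors, occurred in Taf7l only (6.25%, against 9.81%). A match in a window is a description of its letters and not of binding.

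Rbmy, an RNA-binding protein gene on the Y chromosome that is expressed in male germ cells, was the 1 called gene among the 11 Y-linked genes tested. It measured 0.967 and 0 CPM in Control and 286, 293, 5.05, 169 and 75.7 CPM in the knockout libraries (log2 change 8.21 ± 1.67, adjusted p = 0.0278), with a 58.0-fold range between the library labelled Dnmt1cKO 3 and Dnmt1cKO 2. The table lists 5 copies (Gm21677, Gm10352, Gm21693, Gm21708 and Gm3376) whose transcripts are at least 99.7% identical to that of Rbmy. Summed over Rbmy and these copies the level was 1.52 and 7.77 CPM in Control and 448, 423, 421, 504 and 591 CPM in the knockout libraries, and the library labelled Dnmt1cKO 3 no longer stood apart. The single gene thus spread more widely among the knockout libraries than the sum over its copies. Of the copies Gm21677 was just outside the threshold, at 0.138 and 1.94 CPM in Control and 163, 91.5, 139, 123 and 257 CPM in the knockout libraries (log2 change 7.29 ± 1.67, adjusted p = 0.0818). The call of Rbmy alone was lost without Control 1 (adjusted p = 0.178), Control 2 (0.738), Dnmt1cKO 1 (0.115), Dnmt1cKO 2 (0.103) or Dnmt1cKO 4 (0.0756). Uba1y, a Y-linked ubiquitin-activating enzyme gene, measured 0.0691 and 0 CPM in Control and 6.28, 42.0, 33.0, 23.2 and 198 CPM in the knockout libraries without a call (adjusted p = 0.131). Usp9y, a Y-linked deubiquitinase gene, had 0 counts in Control and 0, 6.25, 0.241, 26.8 and 46.1 CPM in the knockout libraries (adjusted p = 0.635). Kdm5d, a Y-linked histone demethylase gene with broad expression, measured 71.1 and 89.5 CPM in Control and 46.2, 78.0, 0.962, 25.1 and 75.2 CPM in the knockout libraries (log2 change -0.83 ± 1.07, adjusted p = 1), and the library labelled Dnmt1cKO 3 was low. The 6 Y-linked genes of the list summed to 288 and 338 CPM in Control and 331 to 547 CPM in the knockout libraries. This sum includes the called gene Rbmy, so it is not read as a measure of Y content. Ddx3y, also of the list, measured 130 and 151 CPM in Control and 38.8 to 205 CPM in the knockout libraries. Eif2s3y measured 52.9 and 58.9 CPM and 49.4 to 113 CPM, and Uty 32.96 and 38.5 CPM and 0 to 48.1 CPM. Each of these knockout ranges reached below and above both Control values. How far the sex of the pooled embryos moved with the groups was not tested.

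A further 11 called genes were transcribed without the knockout. Hist4h4, a histone H4 gene, had the smallest adjusted p. It measured 7.19 and 23.3 CPM in Control and 2211, 4187, 2983, 4275 and 4786 CPM in the knockout libraries (log2 change 7.93 ± 0.68, adjusted p = 1.8e-07), and of the 25 canonical histone genes tested it was the only one called. Gm11127, a predicted gene with a near-identical partner, Gm7030, measured 7.67 and 26.7 CPM in Control and 4965, 3170.2, 3017, 7925 and 5357 CPM in the knockout libraries (log2 change 8.16 ± 0.87, adjusted p = 4.26e-06). A430078G23Rik measured 11.1 and 8.26 CPM in Control and 646, 737, 589, 909 and 761 CPM in the knockout libraries (log2 change 6.23 ± 0.94, adjusted p = 0.000768), the second narrowest spread among the Dnmt1cKO libraries of the called genes after Gsto1. Vmn1r58, which belongs to a family of vomeronasal receptors, had 50.6 and 35.9 CPM in Control and 546, 377, 575, 821 and 450.1 CPM in the knockout libraries (log2 change 3.68 ± 0.54, adjusted p = 0.000699). Zfp706, a zinc finger gene, measured 165 and 179 CPM in Control and 1279, 1279.7, 682, 2174 and 1473 CPM in the knockout libraries (log2 change 2.999 ± 0.45, adjusted p = 0.000768). The intervals of all these log2 fold changes lie above 0, for example 2.07 to 3.93 for Zfp706 (95%). Without Control 1 the calls of A430078G23Rik (adjusted p = 0.0695), Vmn1r58 (0.0627) and Zfp706 (0.121) were lost, and without Control 2 the same 3 genes had adjusted p = 0.0794, 0.106 and 0.0794.

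Enzyme and barrier genes were among the rest of this group. Ces2b, a carboxylesterase gene, measured 31.8 and 29.6 CPM in Control and 702, 419, 226, 650.3 and 317 CPM in the knockout libraries (log2 change 3.91 ± 0.58, adjusted p = 0.000699). Grk4, a kinase that desensitises G protein-coupled receptors, measured 31.6 and 23.5 CPM in Control and 156, 659, 378, 162 and 299 CPM in the knockout libraries (log2 change 3.59 ± 0.67, adjusted p = 0.0121), and its highest library was Dnmt1cKO 2. F830016B08Rik measured 19.8 and 27.8 CPM in Control and 771, 1187, 305, 689.7 and 946 CPM in the knockout libraries (log2 change 5.03 ± 0.99, adjusted p = 0.0193). Gsto1, an omega-class glutathione transferase, had the smallest change of the called genes, 92.1 and 153 CPM in Control and 425, 483, 609.7, 398 and 454 CPM in the knockout libraries (log2 change 1.95 ± 0.41, adjusted p = 0.0362). Sprr2a2, a small proline-rich protein of cornified and stressed epithelia, measured 16.0 and 9.23 CPM in Control and 128, 272, 102, 174 and 188 CPM in the knockout libraries (log2 change 3.77 ± 0.72, adjusted p = 0.0147). Its transcript is 99.9% identical to that of Sprr2a1, which had the same values in Control and in the knockout libraries 1, 3, 4 and 5 and 0 counts in Dnmt1cKO 2. Their sum was 32.1 and 18.5 CPM in Control and 203 to 376 CPM in the knockout libraries. Without Control 1 the adjusted p was 0.0811 for Ces2b, 0.43 for Grk4, 0.762 for F830016B08Rik, 0.824 for Gsto1 and 0.385 for Sprr2a2. Without Control 2 it was 0.0809, 0.706, 0.371, 0.314 and 0.875 for the same genes, and the call of Sprr2a2 was also lost without Dnmt1cKO 2 (0.0534).

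Of the 11 called genes that were expressed without the knockout, 8 shared stretches of transcript with many other genes, whereas Gsto1 shared them with 0, Sprr2a2 with 1 and F830016B08Rik with 4. A segment of at least 100 bases at 90% identity or more was found in 10 or more other genes of the table for 8 of the 23 called genes (34.8%), against 11.8% of the 12418 tested genes with an annotated transcript. All 8 were among the 11 genes with a Cre-negative mean of 1 CPM or more, among them Hist4h4, Gm11127, A430078G23Rik, Vmn1r58, Ces2b, Grk4 and Zfp706. Vmn1r58 shared segments with 411 other genes, Grk4 with 20 and Ces2b with 19. None of the 12 genes under 1 CPM reached 10 other genes, and Trap1a, Dazl, Tex19.1, Taf7l, Tex13 and Rhox5 shared none. Gm11127, A430078G23Rik and Zfp706 also share segments of 236 to 265 bases with one another, at 93.0 to 97.4% identity. These shares are a description of the annotated transcripts, and how reads from such segments were assigned was not tested. Exons on the opposite strand overlap 3 of the called genes, Gm11127, Zfp706 and Tuba3a, and whether counting used strand is not given in the sources used here.

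Beside the knockout, several of these genes had a level in Control that differed from Cre-negative urothelium. Against Cre-negative, 7 of the 13011 genes were called higher in Control (0.0538%) and 0 lower (0%), and an unadjusted p under 0.05 gave 454 higher (3.49%) and 23 lower (0.177%). Rhox5 stood at 2.83 and 13.8 CPM in Control and 0 to 0.173 CPM in Cre-negative libraries (log2 fold change 6.41 ± 0.64, adjusted p = 4.76e-06). Trap1a stood at 0.144 to 0.519 CPM in Cre-negative libraries, below both Control libraries (log2 fold change 4.43 ± 0.47, adjusted p = 8.96e-06). Rhox6 had 0 to 0.255 CPM in Cre-negative libraries (log2 fold change of Control against them 4.27 ± 0.56, adjusted p = 0.000255), Taf7l 0 to 0.271 CPM (4.61 ± 0.72, adjusted p = 0.0027) and Hist4h4 1.63 to 4.91 CPM (2.56 ± 0.39, adjusted p = 0.0025). Tuba3b, at 0 to 0.229 CPM in Cre-negative libraries, was also called (5.24 ± 0.92, adjusted p = 0.0148). In each of these 6 genes Control 2 was higher than Control 1. A430078G23Rik, at 0.255 to 4.49 CPM in Cre-negative libraries and above that in both Control libraries, was not called (2.52 ± 0.60, adjusted p = 0.226), nor was Gm11127, at 0.864 to 7.94 CPM (2.07 ± 0.49, adjusted p = 0.226). Of the 23 genes, 16 had a higher mean in Control than in Cre-negative libraries. The same share over all genes tested was not taken, so this count is not read as a trait of the called genes. Dazl was at 0.0691 and 0 CPM in Control and 0 to 0.255 CPM in Cre-negative libraries, and Rhox9 at 0 in both groups. The 2 comparisons share the Control libraries, so a high Control value enters both with opposite sign. Control embryos have Cre and 1 floxed Dnmt1 allele where their littermates have no Cre, and those differences cannot be told apart.

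Germ cell genes below the threshold extend the list of detected transcripts. Asz1, a germ granule protein of the piRNA pathway, had 1 count in Control and 18.3, 19.4, 58.0, 119.9 and 73.9 CPM in the knockout libraries (adjusted p = 0.199). Mael, also of the piRNA pathway, had 0 counts in Control and 34.2, 29.7, 0.241, 21.99 and 29.1 CPM in the knockout libraries (adjusted p = 0.501). Stra8, the retinoic acid target that starts meiosis, had 0 counts in Control and 48.8, 12.3, 39.0, 25.1 and 0 CPM in the knockout libraries (adjusted p = 0.49). These genes were thus detected in 4 or 5 of the Dnmt1cKO libraries with levels that differed widely between them. Sohlh2, a transcription factor of early germ cells, measured 0.622 and 3.89 CPM in Control and 85.6, 67.6, 22.8, 56.5 and 92.2 CPM in the knockout libraries (adjusted p = 0.49). Xlr5a, of an X-linked lymphocyte-regulated family, had 0.0691 and 0.162 CPM in Control and 22.5, 78.5, 154, 169 and 0 CPM in the knockout libraries (adjusted p = 0.49) and was at 0 in Dnmt1cKO 5. The pluripotency and 2-cell genes Dppa5a (41.4, 17.8, 104, 12.8 and 0 CPM) and Zscan4f (72.8, 19.7, 4.81, 40.6 and 0 CPM) were also at 0 in Dnmt1cKO 5, the shallowest library, and in Control. Of the lists, 1 of 14 tested piRNA and germ granule genes (Dazl) and 1 of 19 tested meiosis genes (Tex19.1) were called higher, and 7 and 12 of those tested would have passed the filter without the Dnmt1cKO libraries. Among 14 tested X-linked cancer-testis and Xlr genes 2 were called (Trap1a and Tex13), among 10 tested testis paralogs 2 (Taf7l and Tuba3a) and among 12 pluripotency and 2-cell genes 0. No count over such lists is used as support, since a silent gene could pass the filter only by being high in the knockout libraries.

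Just outside the threshold in the higher direction stood Mnd1, Tuba3b, 9930111J21Rik1 and Pmaip1, with adjusted p from 0.0536 to 0.0596, where the last genes inside were Rbmy (0.0278) and Gsto1 (0.0362). Mnd1, a partner of Hop2 in meiotic recombination that is also found in dividing cells, measured 14.4 and 18.9 CPM in Control and 394, 71.2, 293, 523 and 76.1 CPM in the knockout libraries (log2 fold change 4.03 ± 0.87). Dnmt1cKO libraries 2 and 5 were the low ones, and without either of them Mnd1 was called (adjusted p = 0.0218 and 0.0235). Aplf, a DNA end-joining factor, measured 43.5 and 43.2 CPM in Control and 222, 266, 119.8, 454 and 231 CPM in the knockout libraries (log2 change 2.58 ± 0.61, adjusted p = 0.127) and was called without the library labelled Dnmt1cKO 3 (adjusted p = 0.0375). That library was also the lowest of the 5 for 9930111J21Rik1, at 35.1 CPM against 135 to 211 CPM in the others and 2.21 and 2.59 CPM in Control (adjusted p = 0.0163 without it).

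No target gene of p53 passed the threshold over all genes, although several had higher values in Dnmt1cKO than in Control libraries. Of 31 tested, 0 were called by edgeR, 8 were higher and 1 lower with an unadjusted p under 0.05 (backgrounds 1.71% and 5.23%), and in 10 all 5 Dnmt1cKO libraries stood above both Control libraries, as in 2.6% of all genes tested. The median log2 fold change of the list was 0.94 and that of all genes tested -0.0033. Pmaip1, which encodes the BH3-only protein Noxa, measured 16.0 and 21.4 CPM in Control and 392, 199.6, 176, 326 and 468 CPM in the knockout libraries (log2 change 4.06 ± 0.89, adjusted p = 0.0596). It was called by DESeq2 (adjusted p = 2.35e-05) and without the library labelled Dnmt1cKO 3 (0.0454). Ccng1, cyclin G1, measured 113 and 109 CPM in Control and 213, 561, 580.1, 463 and 274 CPM in the knockout libraries (log2 change 1.91 ± 0.44, adjusted p = 0.0812). The call was made without Dnmt1cKO 1 (adjusted p = 0.0238) or Dnmt1cKO 5 (0.0472) and by limma-voom (0.0144). Trp53inp1, a p53-induced nuclear protein gene, measured 53.3 and 67.2 CPM in Control and 265, 284, 131, 334 and 129.6 CPM in the knockout libraries (log2 change 1.93 ± 0.66, adjusted p = 0.49). Trp53 itself measured 34.6 and 46.5 CPM in Control and 4.28, 61.7, 47.1, 15.5 and 111 CPM in the knockout libraries (log2 change 0.24 ± 0.96, adjusted p = 1), a spread that covers both Control values. The 28 tested genes of DNA damage signalling and repair had 0 calls and 0 members at an unadjusted p under 0.05 in either direction, with a median of 0.06. Of 22 tested BCL2 family and apoptosis genes 2 were higher and 1 lower (median 0.25), the higher ones being Pmaip1 and Birc5, the gene of survivin, at 222 and 208 CPM in Control and 482, 218, 330.2, 579 and 450.1 CPM in the knockout libraries (log2 change 0.94 ± 0.44, adjusted p = 0.697). Of 35 cell cycle genes 1 was higher at that level, Ccnd2, the gene of cyclin D2, at 339.9 and 317 CPM in Control and 452, 1451, 647, 523 and 1226 CPM in the knockout libraries (log2 change 1.39 ± 0.47, adjusted p = 0.49).

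**Figure D2:**
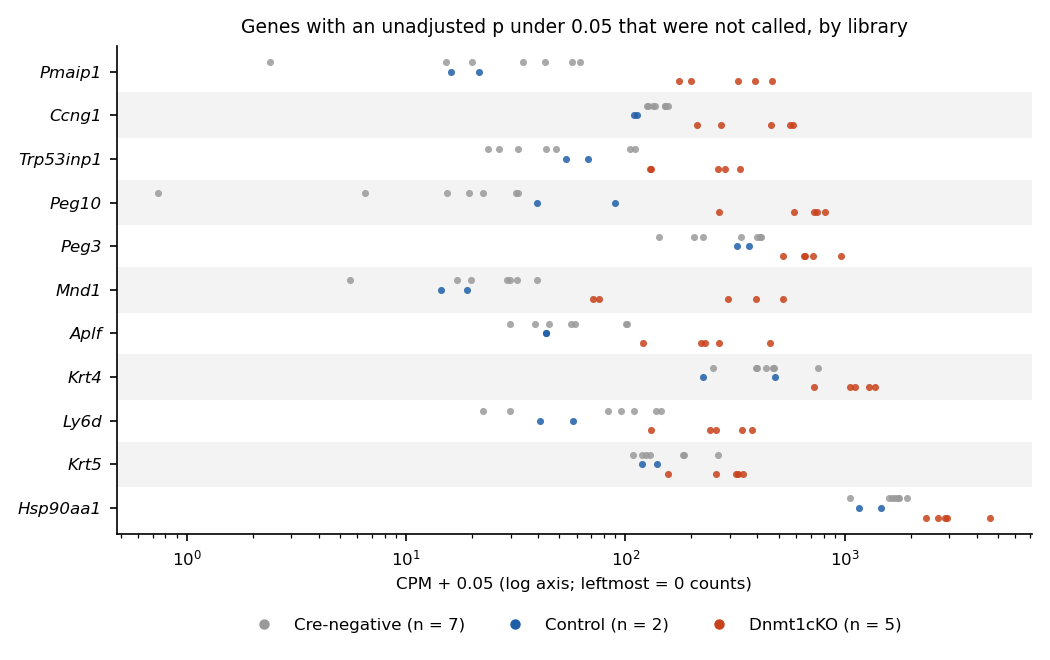
CPM of 11 genes with an unadjusted p under 0.05 that missed the threshold over all genes, in each library, with 0.05 added, on a log axis; each point is 1 library. For Pmaip1 the Dnmt1cKO libraries lie between 176 and 468 CPM and the Control libraries at 16.0 and 21.4 CPM. In all 11 genes the 5 Dnmt1cKO libraries stand above both Control libraries, as in 2.6% of all genes tested. The 11 were picked from the genes described in the text, so this is a description only. Birc5 and Hsph1, also higher at that p, are not shown, and their groups overlapped.

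Imprinted genes, expressed from 1 parental allele under the control of methylated regions, had members in both directions. Of 35 tested, 0 were called, 2 were higher and 4 lower with an unadjusted p under 0.05 (1.71% and 5.23% of all genes), and the median log2 fold change was -0.15. Peg10, a paternally expressed gene derived from a retrotransposon and needed in the placenta, measured 39.5 and 89.2 CPM in Control, 747, 725, 266, 588 and 814 CPM in the knockout and 0.691 to 32.2 CPM in Cre-negative libraries (log2 change 3.29 ± 0.84, adjusted p = 0.217). The library labelled Dnmt1cKO 3 was the lowest of its group and still above both Control libraries. Peg3, a paternally expressed zinc finger gene, measured 365 and 323 CPM in Control and 659.6, 959.7, 521, 654 and 714 CPM in the knockout libraries (log2 change 1.03 ± 0.41, adjusted p = 0.553). Magel2, a gene of the Prader-Willi cluster, had 2.14 and 5.83 CPM in Control and 0 counts in all knockout libraries (adjusted p = 0.514). Of the methylation machinery, 0 of 19 tested genes passed an unadjusted p under 0.05, and Uhrf1 measured 129 and 165 CPM in Control and 222, 243, 295, 194 and 213 CPM in the knockout libraries (log2 fold change 0.66 ± 0.40, 95% interval -0.15 to 1.48). Hells, a chromatin remodeller that takes part in DNA methylation, was at 143 and 162 CPM and 176, 373, 528, 154 and 197 CPM (95% interval of the log2 fold change -0.08 to 1.88). Likewise 0 of 23 tested repressors of germline genes passed, and Eed, a subunit of the Polycomb complex PRC2, measured 42.8 and 33.8 CPM in Control and 56.5, 62.2, 154, 73.2 and 119.6 CPM in the knockout libraries (95% interval -0.10 to 2.66). Intervals of this width do not show that the levels were alike.

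**Figure D3:**
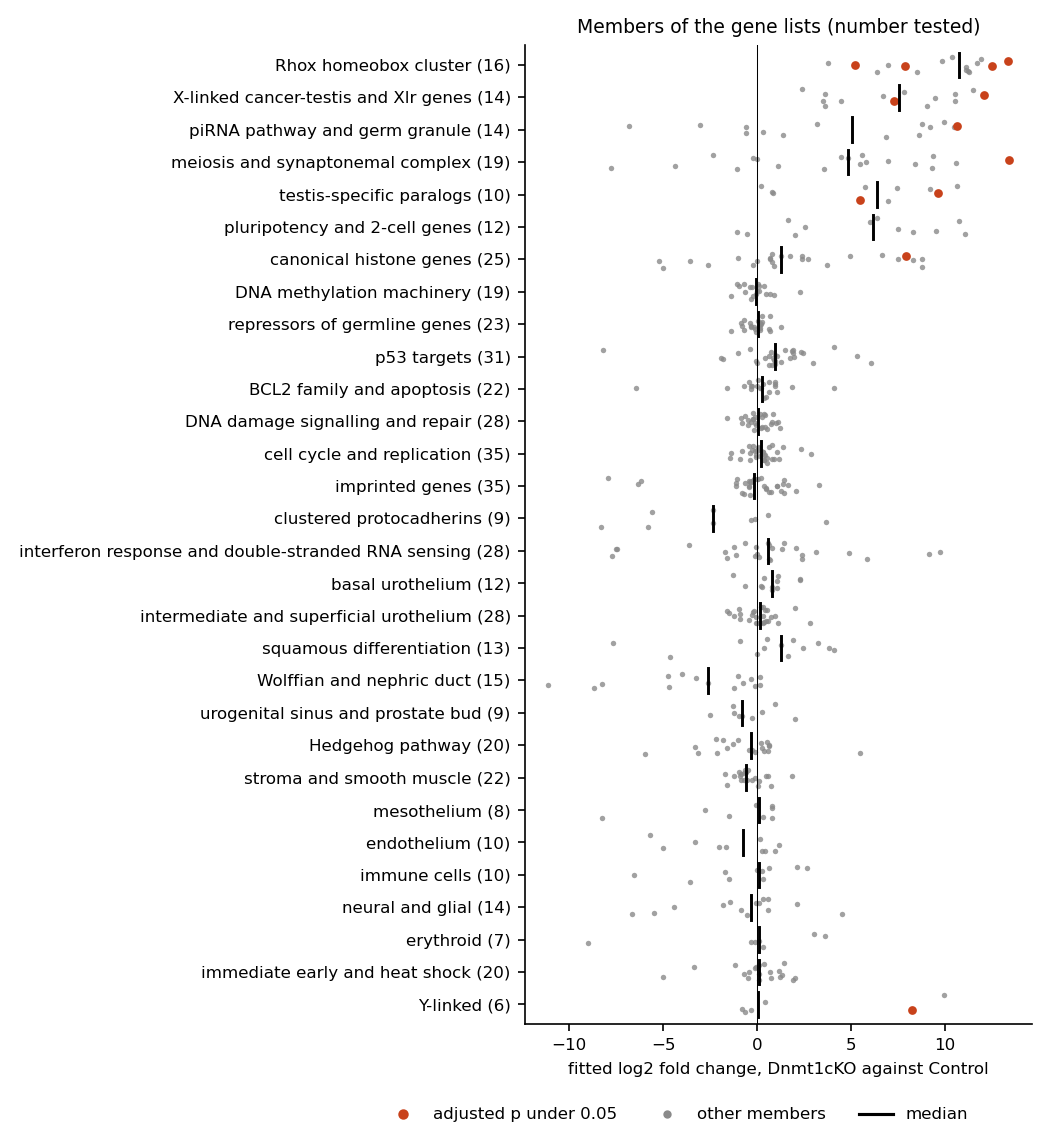
Fitted log2 fold change of Dnmt1cKO against Control for every tested member of the 30 gene lists; each point is 1 gene, red points have an adjusted p under 0.05, and the black bar is the list median, with the number tested in brackets. Red points lie in the germ cell, Rhox, X-linked, testis, histone and Y-linked lists; values for genes with 0 counts in a group depend on the prior count, and many members of the first lists passed the filter through the Dnmt1cKO libraries, so their medians are not read.

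The urothelial and squamous gene lists, which do not hold Sprr2a2, had 0 calls by edgeR. Of 28 tested genes of intermediate and superficial urothelium, 1 was higher and 1 lower with an unadjusted p under 0.05, and the median log2 fold change was 0.16. Mal, a raft protein of apical membranes, measured 719 and 555 CPM in Control and 1435, 1186, 924, 1873 and 1378 CPM in the knockout libraries (log2 change 1.09 ± 0.34, adjusted p = 0.49). Gata3, a transcription factor of urothelium and nephric duct, measured 168 and 62.6 CPM in Control and 34.0, 66.5, 20.2, 32.9 and 94.8 CPM in the knockout libraries (log2 change -1.22 ± 0.53, adjusted p = 0.627), with values that overlapped. Of 12 basal genes, Krt5 was the 1 higher at that level, at 139 and 119 CPM in Control and 327, 343, 156, 258 and 321 CPM in the knockout libraries (log2 change 1.12 ± 0.44, adjusted p = 0.545). Trp63, the transcription factor of basal cells, measured 153 and 113 CPM in Control and 117, 113, 116, 63.1 and 12.6 CPM in the knockout libraries (log2 change -0.66 ± 0.58, adjusted p = 1). In the squamous list, 4 of 13 tested genes were higher and 1 lower with an unadjusted p under 0.05, where 1.71% and 5.23% of all genes were, and the median was 1.26. Krt4, a keratin of stratified non-cornified epithelia, measured 480.1 and 226 CPM in Control and 1294, 1115, 1057, 728 and 1370.4 CPM in the knockout libraries (log2 change 1.66 ± 0.42, adjusted p = 0.189). Ly6d, a surface protein of stratified epithelia, measured 40.6 and 57.6 CPM in Control and 258, 131, 242, 378 and 341 CPM in the knockout libraries (log2 change 2.46 ± 0.67, adjusted p = 0.32). The gene of the heat shock protein Hsp90aa1 stood at 1167 and 1469.9 CPM in Control and 2668, 2862, 2339.6, 2930.4 and 4611 CPM in the knockout libraries (log2 change 1.23 ± 0.33, adjusted p = 0.272). Hsph1, a co-chaperone of Hsp70, stood at 128 and 108 CPM in Control and 292, 398, 293, 196 and 126 CPM in the knockout libraries (log2 change 1.15 ± 0.48, adjusted p = 0.588); of 20 tested immediate early and heat shock genes 2 were higher and 1 lower (median 0.09). None of these genes was called by edgeR, and Krt4, Hsp90aa1, Ly6d and Mal were called higher by DESeq2 (adjusted p = 0.00209, 0.0106, 0.0138 and 0.0463).

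In the lower direction 0 genes were called by edgeR, although 680 had an unadjusted p under 0.05 and in 1267 genes (9.74%) all 5 Dnmt1cKO libraries stood below both Control libraries. Most of the 680 were thinly detected: 366 had 0 counts in all knockout libraries, 501 had 0 counts in 2 or more Cre-negative libraries, and their median level was 4.77 CPM in Control, 1.52 CPM in Cre-negative and 0 in the knockout libraries. Detection did not overlap between the groups either. The share of tested genes with 0 counts was 2.28% and 8.96% in Control, 11.9% to 29.3% in Dnmt1cKO and 6.76% to 21.5% in Cre-negative libraries (exact permutation test between knockout and Control, two-sided, p = 0.0952, the smallest that 5 against 2 libraries allow; 0.286 adjusted over 3 library measures). Its part in the lower values was not tested. The number of lower calls was 15 without Dnmt1cKO 2, which is the deepest of its group, 2 without Dnmt1cKO 1, and 0 or 1 without any of the others or either Control library.

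**Figure D4:**
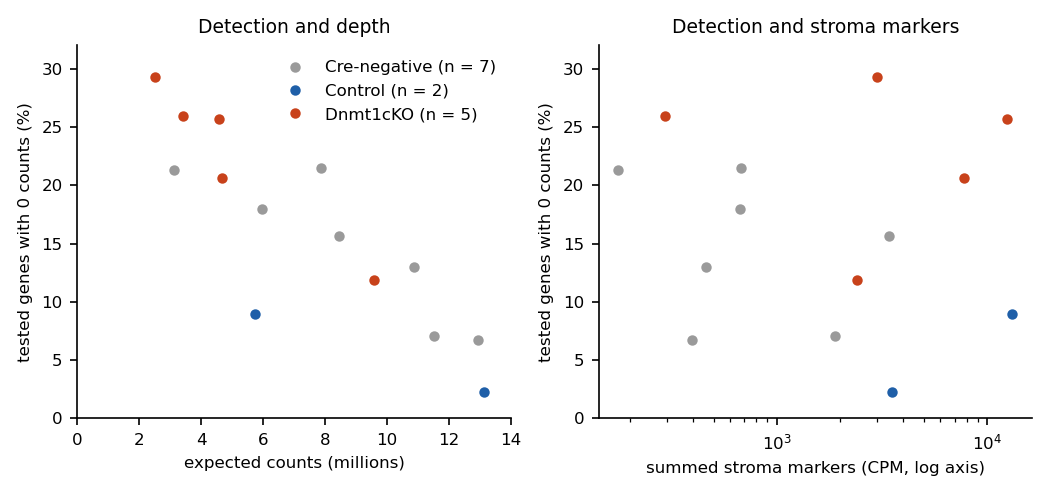
Percentage of tested genes with 0 counts in each library against its total of expected counts (left) and against the summed CPM of 22 stroma and smooth muscle markers on a log axis (right); each point is 1 library. The Control libraries are the lowest of the 7 compared, at 2.28% and 8.96%, and the Dnmt1cKO libraries run from 11.9% to 29.3%.

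A smaller set of lower genes was present in Cre-negative urothelium too. Tbc1d8 measured 33.1 and 8.42 CPM in Control, 0, 0.833, 0, 0.242 and 0 CPM in the knockout and 11.1 to 47.1 CPM in Cre-negative libraries (log2 change -6.22 ± 1.37, adjusted p = 0.0596). Ecm1, a secreted matrix glycoprotein gene, measured 69.2 and 52.0 CPM in Control, 0, 9.90, 0.481, 0 and 0 CPM in the knockout and 49.9 to 258 CPM in Cre-negative libraries (log2 change -4.66 ± 1.04, adjusted p = 0.0653). Dnmt1cKO 2 was the highest of its group for both, and without it both were called lower (adjusted p = 0.0218 and 4.21e-05). Ampd3, an AMP deaminase gene, measured 17.4 and 13.6 CPM in Control and had 0 counts in all knockout libraries, at least 129-fold lower over the summed libraries (adjusted p = 0.199). Cldn1, a claudin of tight junctions, measured 9.26 and 4.53 CPM in Control and 0 in the knockout libraries, at least 62.0-fold lower (adjusted p = 0.374), and it was at 0 in 1 Cre-negative library as well. P4ha3, a subunit of collagen prolyl hydroxylase, measured 16.9 and 21.5 CPM in Control and 0, 0.208, 0.241, 0.242 and 0 CPM in the knockout libraries (adjusted p = 0.151). Gins3, part of the replicative helicase, measured 12.4 and 13.9 CPM in Control and 0, 0.104, 0.481, 0.242 and 0 CPM in the knockout libraries (adjusted p = 0.249). Dnajb2, a co-chaperone gene, measured 11.2 and 12.3 CPM in Control and had 1 count in the knockout, in Dnmt1cKO 2 (adjusted p = 0.185). Slc16a13, of the monocarboxylate transporter family, measured 14.9 and 6.80 CPM in Control and also had 1 count, in the same library (adjusted p = 0.228). Cre-negative means of these 8 genes ran from 10.9 CPM for Ampd3 to 141 CPM for Ecm1.

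**Figure D5:**
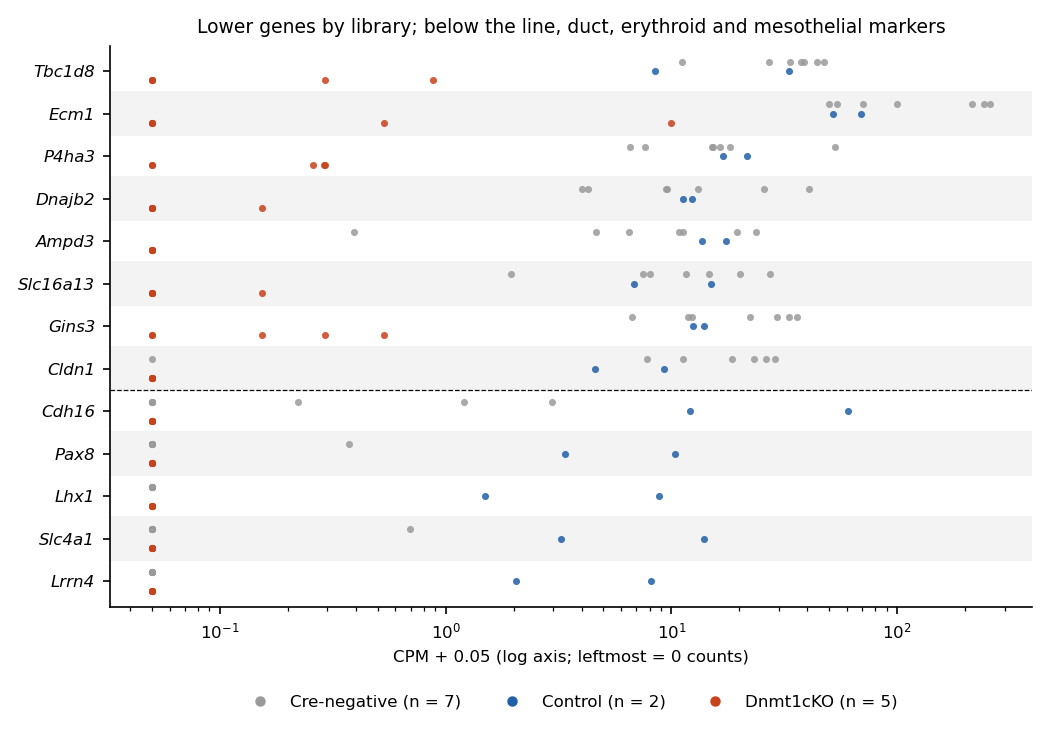
CPM of the 8 lower genes with the smallest p that were not called and, below the dashed line, of 5 marker genes of the nephric duct (Cdh16, Pax8, Lhx1), red cells (Slc4a1) and mesothelium (Lrrn4), in each library, with 0.05 added, on a log axis; each point is 1 library. Above the line most Cre-negative libraries lie among or above the Control libraries; below it the Cre-negative libraries are at or under 2.90 CPM while both Control libraries are above 1 CPM, and knockout libraries are at 0 counts.

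Shh, the ligand whose locus carries Cre in both groups, measured 156 and 61.8 CPM in Control, 32.5, 98.3, 3.85, 65.2 and 18.3 CPM in the knockout and 168 to 373 CPM in Cre-negative libraries (log2 change -1.31 ± 0.64, adjusted p = 0.723, 95% interval -2.62 to 0.00183). The library labelled Dnmt1cKO 3 was the lowest, and the groups overlapped. Of 20 tested Hedgehog pathway genes 0 were called and 1 was lower at an unadjusted p under 0.05, where 5.23% of all genes tested were. That gene was Scube1, which helps to release Hedgehog ligands. It measured 1.87 and 13.3 CPM in Control and 0.285, 0, 0, 0.242 and 0 CPM in the knockout libraries (log2 change -5.98 ± 2.62, adjusted p = 0.635). Tbx3, a T-box factor, measured 263 and 171 CPM in Control and 99.3, 104, 101, 149 and 54.4 CPM in the knockout libraries (log2 change -1.09 ± 0.38, adjusted p = 0.49). Uchl1, a ubiquitin hydrolase gene used as a neural marker, measured 384 and 299 CPM in Control and 126, 102, 2.16, 219.7 and 25.2 CPM in the knockout libraries (log2 change -1.84 ± 0.71, adjusted p = 0.521). For both genes all 5 Dnmt1cKO libraries lay below both Control libraries, as in 9.74% of all genes tested, and neither was called. Both were named for a small p within a list, so this is a description only.

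The study's title names Wolffian duct epithelium as a source of replacement cells, and markers of that duct were read for this reason. Of 15 tested Wolffian and nephric duct genes 0 were called, 4 were lower at an unadjusted p under 0.05 (5.23% of all genes tested were), and in 7 all 5 Dnmt1cKO libraries stood below both Control libraries (9.74% of all genes). The median log2 fold change was -2.62. Cdh16, the kidney and duct cadherin, measured 12.1 and 60.5 CPM in Control, 0 in every Dnmt1cKO library and 0 to 2.90 CPM in Cre-negative libraries, at least 210.0-fold lower in Dnmt1cKO than in Control (adjusted p = 0.442). Pax8, a transcription factor of the nephric lineage, measured 3.32 and 10.4 CPM in Control and 0 in every Dnmt1cKO library (adjusted p = 0.49). Lhx1, a LIM homeobox factor of the same lineage, measured 1.45 and 8.74 CPM in Control and 0 in every Dnmt1cKO and Cre-negative library (adjusted p = 0.49). Cdh16, Pax8 and Lhx1 were thus at 0 in the Dnmt1cKO libraries and present in both Control libraries, where Control 2 was the higher. The fourth lower gene was Gata3, which stands in this list and in that of urothelium and was detected in every Dnmt1cKO library (20.2 to 94.8 CPM). Single markers of other tissues were also at 0 in the knockout. The median log2 fold change was 0.12 for the mesothelial list and 0.10 for the erythroid list. By mean log2 CPM the mesothelial list was lower in Dnmt1cKO, at 2.73 ± 1.19 against 4.97 ± 0.75 in Control (SD). For the erythroid list these means were 3.05 ± 2.14 and 4.47 ± 1.15, and in both lists single libraries of the groups overlapped. Lrrn4, of mesothelium, measured 2.004 and 8.09 CPM in Control and 0 in the other 12 libraries, and Slc4a1, the red cell anion exchanger, 3.18 and 13.9 CPM in Control and 0 in every Dnmt1cKO library. In bulk tissue, fewer cells of a type and less RNA per cell cannot be told apart.

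Transcripts of other cell types varied between libraries of 1 group. The 22 stroma and smooth muscle markers summed to 3524 and 13174 CPM in Control, 293 to 12497 CPM in Dnmt1cKO and 176 to 3423 CPM in Cre-negative libraries, and 0 of them passed an unadjusted p under 0.05. Their mean log2 CPM was 5.87 ± 1.23 in Control and 4.29 ± 1.89 in the knockout libraries (SD; two-sided exact permutation p = 0.381). Col3a1, a stromal collagen, measured 1105 and 4295 CPM in Control and 78.8, 756, 3516, 2275 and 713 CPM in the knockout libraries, with Dnmt1cKO 1 near the Cre-negative level and the library labelled Dnmt1cKO 3 close to Control 2. The 7 erythroid markers summed to 425 and 1171 CPM in Control and 162 to 1760 CPM in the knockout libraries. The 10 endothelial markers summed to 23.9 and 68.3 CPM in Control and 0 to 135 CPM in the knockout libraries, and the 10 immune markers to 26.5 and 64.9 CPM and 29.1 to 119 CPM. The 8 mesothelial markers summed to 1131 and 1663 CPM in Control and 1145 to 2376 CPM in the knockout, and the 14 neural and glial markers to 684 and 693 CPM and 233 to 957 CPM. By mean log2 CPM all 5 Dnmt1cKO libraries lay below both Control libraries for the endothelial markers (-2.93 to 0.29 against 0.96 and 2.37). The same held for the immune markers (-1.64 to 0.04 against 0.70 and 2.01). For the stroma, erythroid, mesothelial and neural lists the means of single libraries overlapped. At an unadjusted p under 0.05 these lists had 1 lower erythroid, 1 endothelial, 1 immune, 1 mesothelial and 2 neural genes and no higher one. Of all genes tested, 5.23% were lower and 1.71% higher at that level. With the stroma mean as a covariate all 23 calls were kept. Dnmt1cKO 1, the library with the least stroma, held Rhox6 at 606 CPM and Trap1a at 985 CPM. The library labelled Dnmt1cKO 3, with the most, held them at 517 and 873 CPM. Other called genes differed more between these libraries, with Rbmy at 286 and 5.05 CPM and Taf7l at 319 and 64.7 CPM. Grk4 went the other way, at 156 and 378 CPM. The library labelled Dnmt1cKO 3 was the lowest of the 5 for 14 of the 23 called genes. How the stroma share bears on these levels was not tested.

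Other lists showed no call. Clustered protocadherins, neuronal adhesion genes with methylated promoters, had 3 of 9 tested genes lower at an unadjusted p under 0.05 (5.23% of all genes, median -2.35). Pcdhb16 measured 3.46 and 6.96 CPM in Control, Pcdhb6 1.52 and 0 CPM and Pcdhb3 1.80 and 0 CPM. All 3 were at 0 in every Dnmt1cKO library. In the same order they were also at 0 in 4, 5 and 6 of the 7 Cre-negative libraries. Interferon response and double-stranded RNA sensing genes had 1 higher and 3 lower of 28 tested, against 1.71% and 5.23% of all genes tested. In 16 of the 28 the log2 fold change was above 0 (median 0.59). Among the lower genes, Oasl2 and Gbp2, both induced by interferon, measured 1.66 and 5.18 and 2.76 and 3.08 CPM in Control. Both were at 0 in every Dnmt1cKO library and at 0 or under 0.1 CPM in Cre-negative libraries. Of 9 tested urogenital sinus and prostate bud genes 0 passed at that level (median -0.81). Hoxb13, a homeobox gene of the hindgut and urogenital sinus, measured 23.1 and 8.74 CPM in Control, 13.1 to 46.4 CPM in Cre-negative and 0 in 4 of 5 Dnmt1cKO libraries, with 14.4 CPM in Dnmt1cKO 5 (adjusted p = 1, or 0.0195 without that library).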

How the data were processed

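Polyadenylated RNA of bladder urothelium was sequenced in 14 libraries, 5 Dnmt1cKO, 2 Control and 7 Cre-negative, grouped by their titles. The table the authors deposited gives expected counts, as RSEM estimates them, for 20308 gene symbols. Tools in the submitters' processing notes are RSEM 1.2.3, Bowtie 0.12.9 and bcl2fastq 2.17.1.14, with build mm10; annotation and use of strand are not given in the sources used here. Expected counts were rounded, filtered with filterByExpr on the 3 groups (13011 genes left) and scaled by TMM.

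The test was edgeR 4.0.16's quasi-likelihood test in R 4.3.3, all 14 libraries in 1 fit, Benjamini-Hochberg adjusted over all genes tested, called under 0.05. Log2 changes carry standard errors. Where a group was at 0, the fold was taken against 3 counts over its summed libraries (3 counts are 0.207 to 1.30 CPM in 1 library); with 1 to 3 counts a 95% exact interval is given. Intervals and floors cover counting error only, since PCR reads carried no described molecular identifiers. Replicates are pooled lysates, so p-values measure the spread between these. Library measures were compared by exact permutation over 21 ways to divide the 7 libraries.

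Alternatives were DESeq2 1.42.0, voom in limma 3.58.1, scaling by RLE or upper quartile, no filter, 1 CPM in 5 libraries, the 7 libraries alone, a stroma covariate, a replicate block, no shallow libraries and leaving out each library. Members and the 30 gene lists were chosen with earlier results of these data known. Genes were named if called, if Dnmt1, Shh or Trp53, if among the 3 smallest p of a list, or among the 8 smallest uncalled in each direction with 5 CPM and no overlap (113 genes, not all described); 1 called gene is counted but not reported here. Positions came from GENCODE M21 (GRCm38, which is mm10), promoters from RefSeq GRCm38.p6, and transcript identity from BLAST+ 2.17.0.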

Additional observations from a re-analysis of the deposited data

Results flagged for a closer look

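In 8 of 84 genes examined, 1 Dnmt1cKO library lay far from the other 4, by a gap over the group's range above 0.71. Of these, 4 were lower genes in which Dnmt1cKO 2, the deepest of its group, held the highest value: Ecm1 at 9.90 CPM with the next at 0.481 CPM, Tbc1d8 at 0.833 CPM with the next at 0.242 CPM, and Dnajb2 and Slc16a13 at 0.104 CPM, 1 count each, with 0 in the others. Dnmt1cKO 5, the shallowest library, stood apart in 3: Uba1y at 198 CPM with the next at 42.0 CPM, Hsp90aa1 at 4611 CPM with the next at 2930.4 CPM, and Hoxb13 at 14.4 CPM with 0 in the others. Psg23 in Dnmt1cKO 4 was at 735 CPM with the next at 263 CPM. The source of these single values was not tested, nor how often chance gives such gaps in CPM values. With 0 counts in the other 4 libraries, as for Dnajb2, Slc16a13 and Hoxb13, gap and range are equal by construction.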

How the results depend on the processing

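Across the 18 alternatives all 23 higher genes kept their direction, and 6 of them were called in each, among them Hist4h4, Trap1a, Gm11127, Rhox6 and Rhox9. RLE scaling gave 26 higher calls, upper-quartile scaling 22, no filter 32, 1 CPM in 5 libraries 23, the 7 libraries alone 31, the stroma covariate 25 and leaving out the 3 shallowest libraries 20. DESeq2 called 96 higher and 25 lower genes and limma-voom 59 and 173. Against Control and Cre-negative merged, chosen after seeing the data, 84 were higher and 25 lower. No filter and the stroma covariate gave 2 lower calls each. Leaving out 1 library at a time gave 6 to 26 higher and 0 to 15 lower calls. With the replicate number as a block 18 genes were called higher, 16 of them among the 23; same-numbered libraries correlated by -0.15 to 0.10 after removing group means, so the numbers do not pair the libraries. The direction of 3 uncalled genes turned: Trp53 (-0.13 with voom, -0.16 with the replicate block, -0.33 without Dnmt1cKO 5 and up to 0.54 without Dnmt1cKO 1), Sprr2a1 (-1.38 with voom) and Col3a1 (0.30 with the stroma covariate, 0.42 without Control 2 and -1.55 without Control 1, 0.75 against the merged groups); the cause was not tested. The median log2 fold change of all genes moved to -0.12 with upper-quartile scaling, -0.78 with voom and -0.38 with the block. Of 1478 values of 84 genes under an alternative, 1306 kept direction and side of the threshold, 56 lost a call, 109 gained one and 7 turned. A count of 3 corresponds to 0.207 to 1.30 CPM in 1 library, and levels under that were not measurable at these depths.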
